A study of Mus musculus with 6 samples.

Results

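*Fancc*, *Faap24*, *Faap100* and *Eme2* are the 4 genes of the Fanconi anemia pathway and of interstrand cross-link repair that were followed here, out of 257 genes with deposited counts. They were taken by name from a table that appears to hold selected genes, since every gene in it has an unadjusted p of at most 0.0498 when the group means of the comparison described below are compared parametrically. Liver RNA was sequenced from 3 TBG-Vec mice and 3 TBG-*Zrsr1* mice, all fed a high-fat diet (HFD) for 13 weeks. The labels number the libraries without naming the animals, and each library is taken here as a single mouse. TBG-*Zrsr1* mice were C57BL/6J mice injected with an adeno-associated virus (AAV) that carries *Zrsr1*, a factor of minor intron splicing, behind the hepatocyte promoter TBG, and TBG-Vec mice received the vector control. Age is not given in the sources used here, and the library names of the TBG-Vec mice hold the letters GFP. The comparison asked which genes change in the steatotic liver when hepatocytes express more *Zrsr1*.

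Interstrand cross-links join both strands of DNA and block replication forks. The Fanconi core complex is a ubiquitin ligase that gathers at such forks and marks the FANCD2-FANCI pair, after which structure-specific nucleases unhook the cross-link and recombination restores the fork. Reactive aldehydes, which the liver detoxifies, are a known source of such lesions. Most hepatocytes of an adult liver are not dividing, and genes of this pathway are usually expressed there at low levels.

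The delivered gene was read first as a check of the labels. *Zrsr1* had 194, 197 and 202 counts in TBG-Vec mice and 4383, 4479 and 4405 counts in TBG-*Zrsr1* mice, which matches the labels of all 6 libraries. Counts of the listed genes summed to 264103, 283414 and 281277 in TBG-Vec mice and to 231429, 174448 and 227278 in TBG-*Zrsr1* mice. These are sums over a selected list and not sequencing depths, which are unknown.

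All 4 cross-link repair genes had lower counts in every TBG-*Zrsr1* mouse than in any TBG-Vec mouse, a separation in this direction that 73.9% of the 257 listed genes showed. The group means of TBG-*Zrsr1* mice lay between 60.5% and 69.0% of those of TBG-Vec mice. *Fancc*, *Faap24* and *Eme2*, 3 of the 4 genes, fell past the threshold taken from the study's methods, a fold change of more than 1.5 with an adjusted p below 0.05, and 42.0% of all listed genes were called lower in the same way. The adjusted p here came from edgeR over the listed genes alone, whereas the study's methods name DESeq2. The cutoffs are thus the same, but the adjusted p-values are not the study's. *Faap100* did not reach a 1.5-fold change. This fit did not rescale the libraries, and 0 of the 4 genes were called after each of 4 rescalings in edgeR or in DESeq2 with its own size factors, beside 3.89% to 17.5% of the listed genes (at an unadjusted p under 0.05, 3 of the 4 beside 58.0% of the listed genes with equal totals without *Scd1*, the most abundant gene, and 0 beside 7.00% to 15.6% in the others). Because the table appears to have been selected on this comparison, these counts describe the listed genes and are no independent evidence of a direction. In bulk liver, fewer cells of a type and less RNA per cell cannot be told apart.

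Added together, the 4 genes had 201, 198 and 209 counts in TBG-Vec mice and 151, 127 and 114 counts in TBG-*Zrsr1* mice. The 3 controls lay close to each other and TBG-*Zrsr1* mice were spread more widely, with means of 203 ± 5.69 and 131 ± 18.8 counts (SD, n = 3 each). The whole signal of the 4 genes is thus a difference of 216 counts over 6 libraries.

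*Fancc* encodes a subunit of the Fanconi core complex. Its counts were 72, 53 and 65 in TBG-Vec mice and 43, 35 and 42 in TBG-*Zrsr1* mice. TBG-Vec mouse 2 was the lowest control and still lay 10 counts above the highest TBG-*Zrsr1* mouse. Means were 63.3 ± 9.61 and 40.0 ± 4.36 counts (SD, n = 3 each). In edgeR's quasi-likelihood test *Fancc* fell by 0.66 on the log2 scale, with a standard error of 0.18 and a Benjamini-Hochberg adjusted p of 0.00952 (0.00426 to 0.776 over the alternatives). Without TBG-Vec mouse 1 or without TBG-*Zrsr1* mouse 2 the log2 fold change was −0.56 or −0.57, which is under a 1.5-fold change.

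*Faap24* encodes a small protein of the XPF nuclease family that lacks nuclease activity, and it pairs with FANCM to bring the core complex to DNA. It had 42, 44 and 42 counts in TBG-Vec mice and 29, 29 and 24 counts in TBG-*Zrsr1* mice. The groups were separated by 13 counts, the widest gap among the 4 genes. Means were 42.7 ± 1.15 and 27.3 ± 2.89 counts (SD, n = 3 each). The log2 fold change of *Faap24* was −0.64 with a standard error of 0.17, and its Benjamini-Hochberg adjusted p in edgeR's quasi-likelihood test was 0.00857 (0.00857 to 0.926 over the alternatives). Without TBG-*Zrsr1* mouse 3 the log2 fold change was −0.56 and no longer past 1.5-fold.

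*Faap100* encodes the partner that holds FANCB and FANCL, the catalytic subunit, together in the core complex. Its counts were 51, 60 and 60 in TBG-Vec mice and 48, 38 and 32 in TBG-*Zrsr1* mice. TBG-*Zrsr1* mouse 1 came within 3 counts of the lowest control, the narrowest gap among the 4 genes. Means were 57 ± 5.20 and 39.3 ± 8.08 counts (SD, n = 3 each). The log2 fold change was −0.53 with a standard error of 0.19, too small for the threshold although the Benjamini-Hochberg adjusted p in edgeR's quasi-likelihood test was 0.0163 (0.0152 to 1.00 over the alternatives). Leaving out TBG-Vec mouse 1 or TBG-*Zrsr1* mouse 1 moved it past the threshold, to −0.61 or −0.70, and without TBG-*Zrsr1* mouse 3 its adjusted p was 0.0667 in edgeR.

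*Eme2* encodes the non-catalytic partner of MUS81 in a nuclease that cuts replication forks and branched DNA. Counts were 36, 41 and 42 in TBG-Vec mice and 31, 25 and 16 in TBG-*Zrsr1* mice. TBG-*Zrsr1* mouse 3, with 16 counts, held the smallest value of any of the 4 genes. Means were 39.7 ± 3.21 and 24.0 ± 7.55 counts (SD, n = 3 each). On the log2 scale *Eme2* fell by 0.72 with a standard error of 0.22, at a Benjamini-Hochberg adjusted p of 0.0110 in edgeR's quasi-likelihood test (0.00647 to 0.738 over the alternatives). This was the largest fold change of the 4 genes, and without TBG-*Zrsr1* mouse 3 it was −0.50 and not past the threshold.

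The log2 fold changes of the 4 genes differed from each other by less than the standard error of the difference, so no order among them is read. For each of the 4 genes the exact permutation test, two-sided on the counts, had p = 0.1, and 3 mice against 3 cannot give a smaller one.

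Single mice decided several of these calls. Without TBG-*Zrsr1* mouse 3, 1 of the 4 genes (*Fancc*) was called beside 42.0% of all listed genes, and without TBG-*Zrsr1* mouse 2, 2 of the 4 genes (*Faap24* and *Eme2*) were called beside 26.1%. Without TBG-*Zrsr1* mouse 1 all 4 were called beside 50.6%. Leaving out TBG-Vec mouse 1 gave *Faap24*, *Faap100* and *Eme2* beside 43.2%, and leaving out TBG-Vec mouse 2 or 3 gave *Fancc*, *Faap24* and *Eme2* beside 37.4% in both. Without TBG-*Zrsr1* mouse 3 the median log2 fold change of the 4 genes, −0.53, was no longer below that of all listed genes, −0.55.

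**Figure D1:**
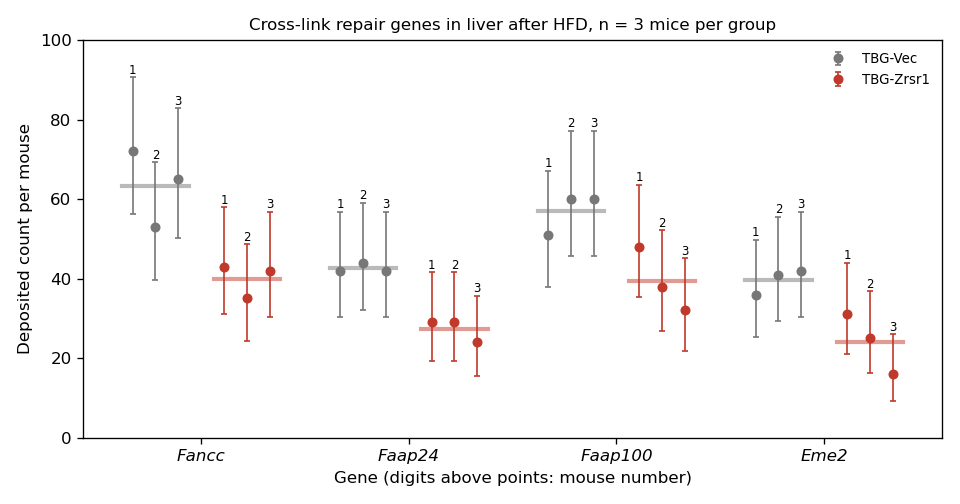
Deposited counts of *Fancc*, *Faap24*, *Faap100* and *Eme2* (y axis, counts per mouse) in 3 TBG-Vec mice (grey) and 3 TBG-*Zrsr1* mice (red). Points are single mice with their number, vertical bars are exact 95% Poisson intervals of each count and horizontal bars are group means. The points of the groups do not overlap, while the intervals of single mice mostly do.

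At these levels the differences were weighed against counting error. A single *Fancc* count of 53, the lowest among the controls, has an exact 95% Poisson interval from 39.7 to 69.3, and the highest count in TBG-*Zrsr1* mice, 43, has an interval from 31.1 to 57.9. Of the 9 pairs formed by a TBG-Vec and a TBG-*Zrsr1* mouse, the intervals overlapped in 7 for *Fancc*, 9 for *Faap24*, 7 for *Faap100* and 7 for *Eme2*. Overlap of such intervals is a description of single counts and no test of a difference between mice.

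Counts summed over the 3 mice were compared next, with an exact Clopper-Pearson interval of the ratio at 95%. *Fancc* summed to 190 counts over the controls and 120 over TBG-*Zrsr1* mice, or 63.2% of the control (interval 49.8% to 79.8%). *Faap24* summed to 128 and 82 counts, or 64.1% (47.9% to 85.2%). *Faap100* gave 171 and 118 counts, or 69.0% (54.1% to 87.8%). *Eme2* gave 119 and 72 counts, or 60.5% (44.5% to 81.8%). All 4 intervals lay below 100% and all 4 held 66.7%, the value of a 1.5-fold fall. Counting error alone was therefore too large to place any of the 4 genes on either side of a 1.5-fold change. These intervals cover counting error only, treat reads as independent molecules and assume that the deposited values were not scaled. The listed genes also appear to have been selected on this same comparison, which favours intervals that leave out 100%. That all 4 lay below 100% is therefore no independent evidence of a fall.

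The spread between mice was close to or under counting error in most groups. Variance divided by the mean, which is 1 for counting error alone, was 1.46 for *Fancc*, 0.0313 for *Faap24*, 0.474 for *Faap100* and 0.261 for *Eme2* in TBG-Vec mice. In TBG-*Zrsr1* mice the ratio was 0.475 for *Fancc*, 0.305 for *Faap24*, 1.66 for *Faap100* and 2.38 for *Eme2*. The 3 counts of *Faap24* in TBG-Vec mice varied by 2.71% of their mean, where counting error alone would give 15.3%. The rule that selected the listed genes is not stated, and a selection by such a comparison of means would favour a small spread within groups, so a spread of this size is not taken as an estimate of how much mice vary.

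The other listed genes put these differences in place. Of the 257 genes, 192 were lower in TBG-*Zrsr1* mice. Their median log2 fold change was −0.61 with quartiles at −0.75 and −0.51. The median over the 4 cross-link repair genes was −0.65. Among the 192 lower genes, 54 had a more negative log2 fold change than *Eme2*, 72 than *Fancc*, 80 than *Faap24* and 130 than *Faap100*. The table holds 42 other genes whose mean over the 6 mice lay between those of *Eme2* (31.8 counts) and *Fancc* (51.7 counts). Of these 42 genes, 35 were lower and 25 (59.5%) were called lower, with −0.63 as the median of the 35. The differences of the 4 genes were thus about as large as those of other listed genes of like abundance.

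Because most listed genes were lower, the fold changes depended on how libraries were scaled. Without rescaling the median log2 fold change over all listed genes was −0.54. Scaling to equal totals without *Scd1*, which held 30.6% to 47.3% of each total, moved that median to −0.36, and scaling to equal totals moved it to −0.14. DESeq2's size factors moved it to −0.07 and TMM factors to −0.02. The implied depth of TBG-*Zrsr1* relative to TBG-Vec libraries ranged from 0.886 for equal totals without *Scd1* to 0.695 for TMM.

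A library scaling moves the log2 fold changes of all genes about alike, so the 4 genes moved with the median by construction. Under TMM in edgeR the log2 fold change was −0.15 for *Fancc*, −0.12 for *Faap24*, −0.02 for *Faap100* and −0.21 for *Eme2*. Relative to the median of all listed genes, *Fancc* stood at −0.13, *Faap24* at −0.11, *Faap100* at 0.00 and *Eme2* at −0.19 without rescaling, and at −0.13, −0.10, 0.00 and −0.19 under TMM. With all 6 mice *Faap100* lay on the median of the listed genes, a distance that a change of scaling could hardly alter. The distances of *Fancc*, *Faap24* and *Eme2* from the median were smaller than their standard errors of 0.17 to 0.22. These distances moved with single mice. That of *Fancc* was −0.25 without TBG-Vec mouse 2 and 0.01 without TBG-Vec mouse 1. That of *Faap24* was −0.21 without TBG-*Zrsr1* mouse 2 and −0.01 without TBG-*Zrsr1* mouse 3. That of *Eme2* was −0.36 without TBG-*Zrsr1* mouse 1 and 0.05 without TBG-*Zrsr1* mouse 3. The more negative value of each was larger than its standard error in that fit (0.20, 0.18 and 0.23). *Faap100* went from −0.11 without TBG-*Zrsr1* mouse 1 to 0.14 without TBG-*Zrsr1* mouse 3.

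No gene of the 4 was called after rescaling. The count was 0 of 4 in edgeR with TMM, beside 3.89% of all listed genes called lower, with DESeq2's size factors, beside 5.06%, with equal totals, beside 6.61%, and with equal totals without *Scd1*, beside 17.5%. DESeq2 with its own size factors also called 0 of 4, beside 4.67%. With equal totals without *Scd1*, *Fancc*, *Faap24* and *Eme2* kept an adjusted p under 0.05 in edgeR, as did 51.8% of all listed genes in the lower direction, and their calls were lost on the fold limit alone, at log2 fold changes of −0.49, −0.47 and −0.55. In the other rescaled fits 0 of the 4 genes had an unadjusted p under 0.05, beside 7.78% of the listed genes with TMM, 10.5% with DESeq2's size factors in edgeR, 15.6% with equal totals and 7.00% in DESeq2 itself. Over the whole table, 108 genes called lower and 48 called higher became 10 lower and 65 higher under TMM. Other choices moved the count less. DESeq2 without scaling called 3 of the 4 genes beside 42.0% of those listed, limma called 3 beside 40.5%, and the fit with the replicate number as a block called 3 beside 41.6%. A minimum mean of 50 counts kept *Fancc*, which was called beside 35.2%. By the adjusted p alone all 4 genes passed, but so did all 257 listed genes, 192 of them (74.7%) lower and 65 higher, so that threshold sets no listed gene apart.

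All 4 genes kept a negative log2 fold change under each rescaling. A scaling computed over genes that all differ between the groups removes a difference that these genes share, whatever its origin, and which scaling is right cannot be told from the listed genes.

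**Figure D2:**
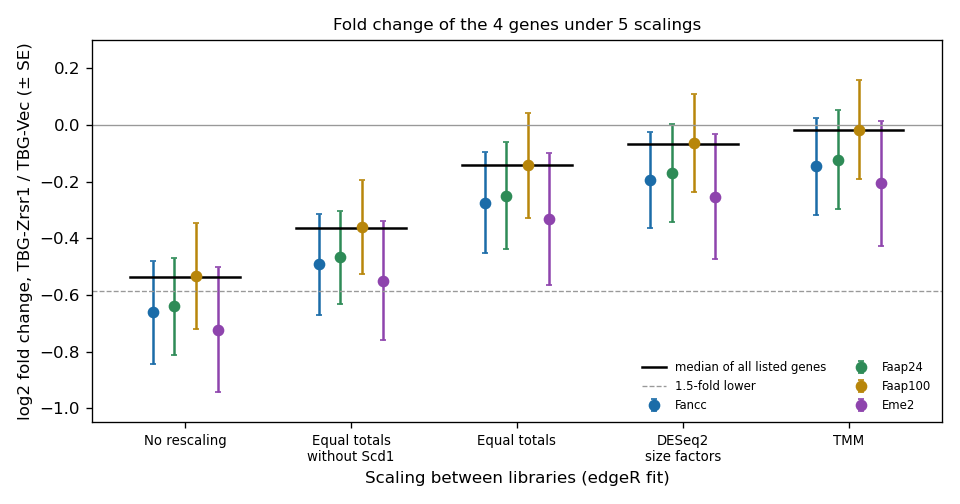
Log2 fold change of the 4 genes in edgeR, TBG-*Zrsr1* over TBG-Vec (y axis), with no rescaling and with 4 ways of scaling the libraries over the listed genes (x axis). Points are estimates with their standard errors, black bars are the median of all 257 listed genes and the dashed line is a 1.5-fold fall. The points follow the median, which moves from −0.54 to −0.02, because a scaling shifts all genes about alike.

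The choice of scale mattered in single mice too. In TBG-*Zrsr1* mice 1, 2 and 3, the median lower gene stood at 69.6%, 57.8% and 68.1% of its TBG-Vec mean. Relative to 10000 counts of all listed genes other than *Scd1*, the 4 cross-link repair genes together held 14.4, 13.1 and 14.0 counts in TBG-Vec mice and 10.9, 10.5 and 8.80 counts in TBG-*Zrsr1* mice, and on this scale the groups did not overlap. Relative to 10000 counts of the lower genes other than *Scd1*, they held 16.6, 15.0 and 15.5 counts in TBG-Vec mice and 16.3, 17.5 and 12.4 counts in TBG-*Zrsr1* mice. On that scale, whose denominator is made of genes that are lower and so takes out a shared fall by construction, the groups overlapped and only TBG-*Zrsr1* mouse 3 lay below all 3 controls.

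The order of the TBG-*Zrsr1* mice differed from that of most lower genes. *Faap24*, *Faap100* and *Eme2* were lowest in mouse 3, and *Fancc* was lowest in mouse 2. Over the 192 lower genes, the lowest count was in mouse 2 for 139 genes (72.4%), in mouse 3 for 28 (14.6%) and in mouse 1 for 17, with ties in 8. Among the 35 lower genes of like abundance it was in mouse 2 for 20 genes and in mouse 3 for 10. *Faap24* differed between mice 2 and 3 by 5 counts, *Faap100* by 6 counts and *Eme2* by 9 counts, and the Poisson intervals of the counts in these mice overlap for all 3 genes.

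Lists of repair genes were then searched in the table, to see what else of the pathway had values. Of 146 genes written down for cross-link repair, recombination, excision repair, mismatch repair, end joining and checkpoint signalling, 5 had values, which were the 4 genes above and *Xrcc3*. All 5 were lower, as were 192 of the 257 listed genes, and 4 were called lower without rescaling, where 42.0% of all listed genes were. Under TMM *Faap100* at −0.02 and *Xrcc3* at −0.07 lay near the median of −0.02. The list of 16 names for the core complex and its partners gave *Fancc*, *Faap24* and *Faap100*, and that of 12 names for nucleases gave *Eme2*. The FANCD2-FANCI pair and downstream repair (18 names) gave 0 genes. Lists for nucleotide excision repair, base excision repair, mismatch repair, end joining, checkpoint signalling and p53 targets also gave 0. Genes that the table does not list were not analysed here. They may have been unchanged, changed without passing the selection, or too low.

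*Xrcc3*, a gene of homologous recombination, had 71, 81 and 74 counts in TBG-Vec mice and 50, 42 and 58 in TBG-*Zrsr1* mice. The groups did not overlap, as in 99.2% of all listed genes, and mouse 2 was the lowest, as in 72.4% of the lower ones. On the log2 scale *Xrcc3* fell by 0.59 with a standard error of 0.17, just past 1.5-fold, at a Benjamini-Hochberg adjusted p of 0.00975 in edgeR. Without TBG-Vec mouse 2 or TBG-*Zrsr1* mouse 2 the log2 fold change was −0.53 or −0.48, under 1.5-fold, and under TMM it was −0.07.

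Cross-link repair genes are often expressed with the replication program, so cell cycle genes were read beside them. Of 25 such genes, *Mcm6* and *E2f1* had values and both were called lower, beside 42.0% of all listed genes. *Mcm6*, a subunit of the replicative helicase, had 55, 43 and 52 counts in TBG-Vec mice and 32, 24 and 41 in TBG-*Zrsr1* mice, and its log2 fold change was −0.63 with a standard error of 0.21 (Benjamini-Hochberg adjusted p = 0.0138 in edgeR). *E2f1*, a transcription factor of S-phase genes, had 44, 57 and 57 counts in TBG-Vec mice and 33, 28 and 41 in TBG-*Zrsr1* mice, with the same log2 fold change of −0.63 and a standard error of 0.20 (Benjamini-Hochberg adjusted p = 0.0115 in edgeR). In both genes the groups did not overlap, as in 99.2% of all listed genes, and the lowest TBG-*Zrsr1* mouse was mouse 2. Without that mouse the log2 fold change was −0.45 for *Mcm6* and −0.51 for *E2f1*, both under 1.5-fold. It was also under 1.5-fold without TBG-Vec mouse 1 for *Mcm6* (−0.55) and without TBG-Vec mouse 2 or 3 for *E2f1* (−0.57 in both), and under TMM it was −0.11 for both genes. None of 7 markers of dividing cells, *Mki67* and *Top2a* among them, had values.

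For the labelled tissue, 0 of 6 hepatocyte markers searched for were in the table. Other genes typical of hepatocytes, picked after their values were seen, were abundant in both groups. *Uroc1*, an enzyme of histidine breakdown, had 5106 ± 557 counts in TBG-Vec and 3332 ± 341 counts in TBG-*Zrsr1* mice, and *Pklr*, the pyruvate kinase of liver, had 5089 ± 990 and 3390 ± 360 counts (SD, n = 3 each). Both were lower, but other abundant genes typical of hepatocytes were higher. Among these, *Mup17* had 2436 ± 1493 and 8178 ± 2468 counts and *Saa4* had 2675 ± 602 and 4700 ± 579 counts (SD, n = 3 each). Of 6 markers of stellate cells and fibroblasts, *Col1a1* and *Col3a1* had values. Both were called lower (log2 fold changes of −1.37 and −0.95), as were 42.0% of all listed genes. Under TMM *Col1a1*, at −0.87, was still called, beside 3.89% of all listed genes, and *Col3a1*, at −0.44, was not. Together they summed to 441, 550 and 659 counts in TBG-Vec mice and to 356, 204 and 244 counts in TBG-*Zrsr1* mice, most of it *Col3a1*, and *Lrat*, *Dcn* and *Des* were not analysed here. Of 5 adipocyte markers *Cfd* had values, with 375, 607 and 100 counts in TBG-Vec mice and 2397, 1024 and 1626 counts in TBG-*Zrsr1* mice. Markers of Kupffer cells and macrophages, endothelial cells, cholangiocytes, lymphocytes and neutrophils had none. The part of other cell types in the lower counts of the 4 genes was not tested.

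The 5 listed genes with a profile over the 6 mice most like the mean profile of the 4 genes are named next. Likeness was the root mean square difference of log2(count + 1), each gene centred on its own mean. *Slc52a2*, a riboflavin transporter, was nearest, at 0.0739. It was followed by *Fbln5*, an elastic fibre protein, at 0.0953, *Lrrk1*, a kinase, at 0.10, *Col4a1*, a basement membrane collagen, at 0.103 and *Tyms*, the thymidylate synthase of DNA precursor synthesis, at 0.103. *Slc52a2* had 66, 71 and 74 counts in TBG-Vec mice and 54, 49 and 43 in TBG-*Zrsr1* mice. Its groups did not overlap, which holds for 99.2% of the listed genes. In all 5 genes TBG-*Zrsr1* mouse 1 had the highest and mouse 3 the lowest count of that group. Against the same mean profile, to which each of them contributes, the 4 genes themselves stood at 0.0796 for *Faap24*, 0.0908 for *Faap100*, 0.164 for *Eme2* and 0.196 for *Fancc*.

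Positions and gene models were read from GENCODE M39 on GRCm39, the build named in the paper's methods, where all 4 are protein-coding genes on the minus strand. *Fancc* (ENSMUSG00000021461.19) spans 63432857 to 63645092 on chromosome 13 and its canonical transcript has 15 exons. *Faap24* (ENSMUSG00000030493.15) lies at 35090613 to 35096261 on chromosome 7 with 4 exons. *Faap100* (ENSMUSG00000025384.17) lies at 120259881 to 120269622 on chromosome 11 with 10 exons. *Eme2* (ENSMUSG00000073436.13) lies at 25107083 to 25114255 on chromosome 17 with 8 exons.

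Levels were compared between the genes per length of the canonical transcript. In TBG-Vec mice the level was 23.0 ± 0.622 counts per kb for *Faap24*, 20.2 ± 3.06 for *Fancc*, 15.4 ± 1.4 for *Faap100* and 6.96 ± 0.564 for *Eme2* (SD, n = 3 each). *Faap24* and *Fancc* did not differ beyond their spread. In TBG-*Zrsr1* mice the level was 14.7 ± 1.56 counts per kb for *Faap24*, 12.7 ± 1.39 for *Fancc*, 10.6 ± 2.18 for *Faap100* and 4.21 ± 1.33 for *Eme2*, and the values of *Faap24*, *Fancc* and *Faap100* overlapped. Per kb of coding length the levels in TBG-Vec mice were 64.4 for *Faap24*, 37.8 for *Fancc*, 35.5 for *Eme2* and 21.6 for *Faap100*, so the place of *Eme2* depended on whether the full or the coding length of the same transcript was used. The canonical *Eme2* transcript is 5699 bases long in GENCODE M39 with 1119 coding bases.

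Overlapping neighbours limit what the counts of these genes hold, since no source used here says whether counting took strand into account. In GENCODE M39 the exons of *Spsb3* on the opposite strand cover 55.1% of the canonical *Eme2* transcript, those of *Mapk8ip3* on the same strand cover 27.1% and those of *Mrps34* on the opposite strand cover 3.23%. In RefSeq's GRCm38 models, by contrast, *Eme2* ends 1 base from *Spsb3* and does not overlap it. *Rhpn2* on the opposite strand covers 7.65% of the canonical *Faap24* transcript and 37.7% of all annotated *Faap24* exons together. On the strand opposite to *Fancc*, *Aopep* covers 2.42% of the canonical transcript and 1.04% of all exons, and the long non-coding RNA *Gm16133* covers 4.87% and 11.1%. Exons of no other gene in GENCODE M39 overlap the canonical *Faap100* transcript. Which gene models the authors counted on is not given in the sources used here. By the canonical transcripts of GENCODE M39, *Eme2* is the gene whose counts are the least certain for this reason. In RefSeq's models the span of *Eme2* overlaps neither *Spsb3* nor *Mrps34*. There the span of *Faap24* shares 136 bases with that of *Rhpn2*, and the span of *Fancc* shares 24763 bases with that of *Aopep*.

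Minor introns, in whose splicing ZRSR1 takes part, were searched for in the 4 genes. Their canonical transcripts hold 33 introns, and 0 of them begin with ATATCC or GTATCC, the start of the common 5′ splice site of minor introns. In all protein-coding genes 0.453% of introns begin with these letters, and 0.391% do in the listed genes matched by symbol. All introns of *Fancc*, *Faap24* and *Eme2* run from GT to AG, and *Faap100* has 8 of this kind and 1 from GC to AG. The absence of these letters says only that this form of the site is not there.

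Promoters were read from RefSeq for GRCm38.p6, as the 250 bases before each gene's start, and all 4 genes were matched. Motifs were searched on both strands. A liver X receptor (LXR) element, spelled as AGGTCA repeated after 4 free bases, and TCACNCCAC of a sterol regulatory element were in 0 of the 4 windows, and they are in 0.0152% and 1.05% of all 32851 windows. TTTGGCGC, TTTCGCGC, TTTCCCGC and TTTGCCGC, forms of the E2F site, were also in 0 of the 4, against 1.86% of all. For spellings this rare 0 of the 4 was the likely outcome, and other forms of these sites were not searched. Their absence therefore does not show that such sites are missing. CCGGAAG, the core of many ETS family sites, was in the windows of *Faap24* and *Eme2* and is in 6.91% of all. CCAAT was found 2 times for *Faap24* and 1 time for *Fancc*, and is in 33.8% of all windows. The matches did not overlap each other. For *Fancc* the window precedes a start that lies inside the gene's RefSeq span.

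*Faap24* and *Eme2*, the pair that share CCGGAAG, both start close to a gene read in the opposite direction. *Faap24* is 231 bases from *Cep89*, and *Eme2* is 32 bases from *Mrps34*, in RefSeq's models. In GENCODE M39 the distance from *Faap24* to *Cep89* is 151 bases, and the *Eme2* start lies 183 bases inside *Mrps34*, so no run between the starts of that pair exists in those models. The runs between the RefSeq starts are shown because the CCGGAAG of both genes lies inside them. They are given 5′ to 3′ on the minus strand, at chr7:35396768-35396998 and chr17:24895088-24895119 of GRCm38.p6, with CCGGAAG and CCAAT (or its reverse complement) in capitals.
Faap24: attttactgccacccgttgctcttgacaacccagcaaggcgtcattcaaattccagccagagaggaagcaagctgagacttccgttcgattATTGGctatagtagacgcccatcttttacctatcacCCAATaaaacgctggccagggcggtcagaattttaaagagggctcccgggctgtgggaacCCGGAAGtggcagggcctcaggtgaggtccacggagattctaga
Eme2: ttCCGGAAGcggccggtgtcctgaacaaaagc
CCGGAAG starts 44 bases before the RefSeq start of *Faap24* and 30 bases before that of *Eme2*, on the strand of the gene in both. The windows held 13 CpG for *Fancc*, 10 for *Faap24*, 25 for *Faap100* and 32 for *Eme2*, against a median of 6 over all windows. Fewer CpG were in 68.5% of all windows than in that of *Fancc*, in 62.2% for *Faap24*, in 89.3% for *Faap100* and in 95.4% for *Eme2*. A match of letters is a description and shows no binding.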

How the data were processed

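Liver RNA of 3 TBG-Vec and 3 TBG-*Zrsr1* mice was enriched for polyadenylated RNA and sequenced. The authors deposited whole-number counts for 257 genes. The paper's methods name FastQC, HISAT2 on GRCm39, HTSeq and DESeq2, whereas the submitters' processing notes list Bowtie2, RSEM 1.3.1, DESeq2 1.4.5 and mm10. Which made the counts, and whether they were scaled, is not given in the sources used here. The rule that selected the listed genes is not stated. The table's mean, fold change and p-value columns were not used.

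Counts were fitted over all 257 genes with edgeR 4.0.16 (glmQLFit, glmQLFTest; R 4.3.3), with 1 library size for all 6 libraries and Benjamini-Hochberg adjustment. filterByExpr removed 0 genes. A standard error is the absolute log2 fold change over the root of F. Alternatives were 4 rescalings in edgeR, DESeq2 1.42.0, limma 3.58.1 on log2(count + 1), other filters and thresholds, a replicate block and each mouse left out. Intervals and permutation tests used scipy 1.17.1. The labels number the samples without naming the animals, so p-values measure only the spread between these samples.

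The 4 genes, the gene lists and the tests were chosen with earlier results of these data known. Named were these genes, *Zrsr1*, the listed members of the repair, cell cycle, p53, minor spliceosome and cell marker lists, and the 5 genes of most similar profile. *Tert*, *Obfc1*, *Nudt1*, *Uroc1*, *Pklr*, *Mup17*, *Saa4* and, among genome maintenance genes, *Tyms* were picked after their values were seen. *Scd1* is named as the most abundant gene. Of 12 minor spliceosome genes *Zrsr1* was in the table. Depth is unknown, so precision rests on each count.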

Additional observations from a re-analysis of the deposited data

How the results depend on the processing

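Scaling decided the calls. The number of genes called lower went from 108 without rescaling to 45 with equal totals without *Scd1*, 17 with equal totals, 13 with DESeq2 size factors in edgeR, 12 with DESeq2 and its size factors and 10 with TMM, while 48 genes called higher became 65 in each. Of the 4 cross-link repair genes 0 were called in these 5 fits (with equal totals without *Scd1*, 3 kept an adjusted p under 0.05 in edgeR, as did 133 listed genes (51.8%) in that direction, and lost the call on the fold limit, and 0 had an unadjusted p under 0.05 in the others). In the same order of fits, the log2 fold change was −0.49, −0.27, −0.19, −0.19 and −0.15 for *Fancc*, −0.47, −0.25, −0.17, −0.17 and −0.12 for *Faap24*, and −0.55, −0.33, −0.25, −0.25 and −0.21 for *Eme2*. *Tyms* and *Nudt1*, at −0.47 and −0.48 without rescaling, turned to 0.045 and 0.037 under TMM. These scalings share out a difference common to the selected genes by construction.

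A mean of at least 50 counts kept 176 genes, with 62 called lower and 30 higher, and left *Fancc* as the 1 of the 4 genes tested and called. The adjusted p without a fold limit passed all 257 listed genes, 192 lower and 65 higher, and so all 4 genes, *Faap100* at −0.53. DESeq2 without scaling and limma called *Fancc*, *Faap24* and *Eme2*. The low-count filter removed 0 genes, so a fit without it could not differ. With each mouse left out in turn, 67 to 130 genes were lower, 44 to 53 were higher and 1 to 4 of the 4 genes were called, with log2 fold changes from −0.77 to −0.56 for *Fancc*, −0.68 to −0.56 for *Faap24*, −0.70 to −0.41 for *Faap100* and −0.95 to −0.50 for *Eme2*. The 67 came without TBG-*Zrsr1* mouse 2 and the 1 without TBG-*Zrsr1* mouse 3, and the cause was not tested. Blocking on the replicate number gave 107 lower and 49 higher genes and 3 of the 4 genes, at −0.66 for *Fancc*, −0.64 for *Faap24*, −0.54 for *Faap100* and −0.73 for *Eme2*. Same-numbered mice did not deviate together more than others. Their correlations across genes were −0.107, 0.031 and 0.055, and those of unlike numbers ran from −0.103 to 0.104. This gives no sign that the numbers pair mice, but so few samples and selected genes cannot exclude a pairing.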

Other observations

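Further genes of genome maintenance were noticed in the table after their values were seen, and they belong to none of the gene lists above, though *Tyms* is among the 5 genes of most similar profile. *Tert*, the reverse transcriptase of telomerase, had 58, 51 and 48 counts in TBG-Vec mice and 38, 27 and 30 counts in TBG-*Zrsr1* mice. Its groups did not overlap. On the log2 scale *Tert* fell by 0.72 with a standard error of 0.19 at a Benjamini-Hochberg adjusted p of 0.00744 in edgeR, and it stayed past 1.5-fold with any 1 mouse left out, though at −0.21 under TMM it was not called. *Obfc1*, whose protein STN1 protects telomere ends, had 28, 31 and 31 counts in TBG-Vec mice and 22, 17 and 23 in TBG-*Zrsr1* mice, with a log2 fold change of −0.54 that is under 1.5-fold. *Nudt1*, which clears oxidised DNA precursors, had a log2 fold change of −0.48 and *Tyms* of −0.47, both under 1.5-fold and both turned to slightly above 0 under TMM. In these 4 genes all 3 TBG-*Zrsr1* mice lay below all 3 TBG-Vec mice, as in 73.9% of the listed genes.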
